A study of Mus musculus with 4 samples.

Results

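The genes described here are 31 listed mouse genes of glucose uptake, glycolysis, lactate handling and the hypoxia response, read in 4 single-cell RNA libraries that each list the same 32285 mouse genes. The list was given by name and its rule uses no measured value, but it was drawn up with earlier results of these data known. They are 2 glucose carriers (Slc2a1, Slc2a3), the enzymes from hexokinase to lactate dehydrogenase (Hk1, Hk2, Gpi1, Pfkp, Pfkl, Pfkm, Aldoa, Aldoc, Tpi1, Gapdh, Pgk1, Pgam1, Eno1, Eno1b, Eno2, Pkm, Ldha, Ldhb), the regulators Pfkfb3, Pfkfb4 and Pdk1, the lactate carriers Slc16a1 and Slc16a3, and 6 hypoxia genes (Bnip3, Ankrd37, Egln3, Adm, Ndrg1, Ddit4). Eno1 and Eno1b were summed because their transcripts share sequence, which leaves 30 measured units. All 31 genes had counts in every library.

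Glycolysis splits glucose into pyruvate in a chain of cytosolic steps and yields ATP without oxygen. Lactate dehydrogenase then turns pyruvate into lactate, which leaves the cell through monocarboxylate carriers. When oxygen is short, the hypoxia-inducible factors bind short DNA elements and raise many of these genes together with Bnip3, Egln3, Ndrg1 and Adm. Neutrophils and growth plate chondrocytes are known for relying on glycolysis, mature red cells lack mitochondria and live on it, and glia are known to supply lactate to axons.

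The study asked how sensory nerves bear on the response to a growth plate (physis) injury in mice. All 4 libraries share a genotype in which an engineered kinase can be inhibited by the compound 1NMPP1, so the controls carry it too. The control group received the DMSO vehicle. The inhibitor group received 1NMPP1 as injections of 17.0 µg per g body weight from a 5.0 mM solution 48.0 h and 2.0 h before surgery and then 40.0 µM 1NMPP1 in the drinking water. Both tissues were taken 7 days after injury: the distal femur epiphysis with the tissue around the injured growth plate, and lumbar dorsal root ganglia (DRG) of the injected side, which hold the cell bodies of sensory neurons. There is 1 library per tissue and treatment, the number of animals pooled in it is not stated, and no difference below has a replicate check or a p-value.

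The libraries held 2612 to 11807 barcodes and 32791945 to 139703885 unique molecular identifiers (UMIs), and 2146 to 10519 cells were kept at a median of 6501 to 10411 UMIs per cell. Any pair of libraries shared 4 to 40 barcodes, at most 0.418% of the smaller one. Male and female cells were unequally divided between treatments: barcodes with Y-linked but no Xist transcripts made up 49.6% of the growth plate vehicle library and 24.7% of the 1NMPP1 library, and 45.7% and 17.4% in DRG, and Pgk1 lies on the X chromosome. Cell classes were rebuilt by clustering without the members and are called by the markers that their clusters carried, so each name stands for "neutrophil-like", "satellite glia-like" and so on. The DRG libraries also held neutrophils, B cells, monocytes and red cells, and the DRG vehicle library held 55 chondrocyte-like cells with 9 of 9 cartilage markers. Levels are in CPM, the UMIs of a gene per 1000000 UMIs of its class in a library, and the 95% intervals given cover counting error only. CPM comes from tags at transcript ends, so a gene is compared between classes or libraries and not with another gene. The highest, next and lowest classes named below are among the 16 growth plate and 15 DRG classes with 25 or more cells in both libraries of the tissue, which leaves out unnamed clusters, the chondrocyte-like cells in DRG and other classes read in 1 library or in fewer cells.

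The promoters of the members are shown first because hypoxia-inducible factors bind the core letters ACGTG or GCGTG. In RefSeq promoter sequences of build GRCm38.p6, taken as the 250 bases before each start, 28 of the 31 genes matched, with 41 starts. Either core on either strand was in 33 of these 41 promoters (80.5%), in 45 of 74 promoters (60.8%) of 52 other genes of the pathway, described further on, and in 38.6% of all 32851 mouse promoters of that length. Cores numbering 3 or more were in 8 of the 41 (19.5%), in 13.5% of the other pathway promoters and in 6.58% of all promoters. The promoters of 4 genes are printed 5′ to 3′ on the gene's own strand, with the core letters in capitals, because the results turn on these genes: the pyruvate-to-lactate enzyme Ldha, the lactate exporter Slc16a3, the mitophagy gene Bnip3 and the glial aldolase Aldoc.
Ldha (chr7:46845554-46845803, plus strand): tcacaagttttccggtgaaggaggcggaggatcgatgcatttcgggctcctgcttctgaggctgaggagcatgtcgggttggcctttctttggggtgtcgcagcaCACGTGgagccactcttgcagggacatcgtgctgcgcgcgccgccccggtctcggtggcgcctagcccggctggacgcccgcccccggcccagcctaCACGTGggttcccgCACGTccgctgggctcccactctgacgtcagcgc
Slc16a3 (chr11:120948817-120949066, plus strand): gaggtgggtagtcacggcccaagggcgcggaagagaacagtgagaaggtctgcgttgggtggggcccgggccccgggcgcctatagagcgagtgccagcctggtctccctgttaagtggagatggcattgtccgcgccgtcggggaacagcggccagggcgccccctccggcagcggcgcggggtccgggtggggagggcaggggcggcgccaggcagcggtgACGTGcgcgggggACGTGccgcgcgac
Bnip3 (chr7:138909507-138909756, minus strand): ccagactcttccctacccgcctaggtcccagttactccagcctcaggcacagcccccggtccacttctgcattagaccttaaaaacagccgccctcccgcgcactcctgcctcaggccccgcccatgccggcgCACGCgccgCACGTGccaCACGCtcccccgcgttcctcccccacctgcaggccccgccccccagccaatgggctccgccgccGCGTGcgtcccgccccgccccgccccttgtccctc
Aldoc (chr11:78322823-78323072, plus strand): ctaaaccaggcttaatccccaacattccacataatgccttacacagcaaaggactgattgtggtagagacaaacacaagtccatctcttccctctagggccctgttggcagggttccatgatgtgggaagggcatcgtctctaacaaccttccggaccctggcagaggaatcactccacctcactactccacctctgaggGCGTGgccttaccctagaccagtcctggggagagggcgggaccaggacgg
A CACGTG word holds the ACGTG core on both strands. The printed promoters of Ldha and Bnip3 each held 5 matches, that of Slc16a3 held 2 and that of Aldoc held 1. Ldha and Aldoc each have 2 listed starts, and the promoter of the start not printed held 1 match in each, while no promoter of Eno2, Gpi1 or Tpi1 held either core. These are letter matches and not measured binding sites.

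The glucose carriers divided the classes between them. Slc2a1, the glucose carrier of vessel walls and many other cells, was at 364 CPM in vehicle DRG endothelial cells and 457 CPM in 1NMPP1 ones, and the next of the ranked DRG classes was at 68.4 and 70.2 CPM. The chondrocyte-like cells of the DRG vehicle library, not ranked, were at 126 CPM. In the growth plate the chondrocytes had its highest level, 89.7 CPM with vehicle and 64.6 CPM with 1NMPP1. Slc2a3, the high-affinity carrier, was highest in growth plate mature neutrophils, at 605 CPM with vehicle and 673 CPM with 1NMPP1, against class medians of 44.6 and 41.2 CPM. Both libraries of a tissue put the same class first for Slc2a1, and the erythroid class was last for it in all 4 libraries (0 to 1.76 CPM).

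The hexokinases, which trap glucose by phosphorylating it, also had separate peaks. Hk2 stood at 385 CPM in vehicle DRG fibroblasts and 313 CPM in 1NMPP1 fibroblasts, and the DRG class medians were 8.89 and 11.1 CPM. Its highest growth plate class was the basophil and mast cell class (127 and 174 CPM). Hk1 was highest in growth plate erythroid cells, at 128 and 114 CPM, and in DRG it was highest in endothelial cells with vehicle (225 CPM) and in sensory neurons with 1NMPP1 (226 CPM). Pre-B cells had the lowest growth plate Hk1, 10.7 and 11.6 CPM.

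Of the phosphofructokinases, the committed step, Pfkp was highest in the growth plate in basophils and mast cells (367 and 479 CPM) and Pfkl in chondrocytes (69.3 and 70.9 CPM). Growth plate Pfkl was lowest in mature neutrophils, at 5.10 and 5.42 CPM. In DRG, Pfkp was highest in sensory neurons with vehicle (215 CPM) and in the shallow neuronal barcodes with 1NMPP1 (321 CPM). The CPM of that shallow class came mostly from its deeper barcodes, as described further on. Pfkl was highest in DRG in sensory neurons (43.4 and 63.8 CPM). The muscle form Pfkm was highest in the growth plate in erythroid cells, 45.9 and 36.9 CPM, where chondrocytes came next at 12.8 and 18.7 CPM. Pfkfb3, which makes the fructose 2,6-bisphosphate that activates phosphofructokinase, was highest in growth plate pre-B cells (283 and 249 CPM) and lowest in erythroid cells (8.05 and 8.35 CPM). Pfkfb4, its relative, was highest in mature neutrophils in all 4 libraries: 106 and 119 CPM in the growth plate and 96.7 and 192 CPM in DRG.

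The enzymes of the middle and lower chain were high in 3 places. Growth plate granulocyte progenitors had the highest levels there of Gpi1 (691 and 670 CPM), Aldoa (458 and 445 CPM), Gapdh (1663 and 1548 CPM) and Pgam1 (538 and 490 CPM). Chondrocytes had the highest growth plate levels of Tpi1 (453 and 361 CPM), Pgk1 (438 and 487 CPM), Eno1 plus Eno1b (103 and 372 CPM) and Ldha (878 and 858 CPM). In DRG the sensory neurons were at 2026 and 2052 CPM for Aldoa and 2063 and 1947 CPM for Gapdh, and Pkm, the last step to pyruvate, was at 784 and 786 CPM in them. Pkm was highest in the growth plate in vehicle chondrocytes (719 CPM) and in 1NMPP1 neutrophils of no named stage (627 CPM). The 17 enzymes from hexokinase to lactate dehydrogenase, summed, came to 5107 and 4926 CPM in granulocyte progenitors, 4944 and 4901 CPM in chondrocytes and 8568 and 8333 CPM in sensory neurons. The lowest sums were in DRG erythroid cells, 644 and 277 CPM. Gapdh shares up to 46.5% of its 50-base words in the last 500 bases with a listed processed copy. Those copies each held at most 0.0549% of the UMIs of copy plus Gapdh. Of the Gapdh words, 63.2% lie in some other annotated gene, listed or not. How many reads were lost because they match Gapdh and another gene alike was not read.

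Eno2, Aldoc and Ldhb were higher in the leading DRG class than in each growth plate class. Eno2, the neuronal enolase, was at 265 and 343 CPM in sensory neurons, and its highest growth plate class, macrophages, was at 10.7 and 16.8 CPM. Aldoc, the brain-type aldolase, was at 352 and 580 CPM in satellite glia, the cells that wrap neuron bodies, and at 19.7 and 19.5 CPM in its highest growth plate class, chondrocytes. Ldhb, the form that favours lactate use, was at 710 and 700 CPM in myelinating Schwann cells and 543 and 600 CPM in satellite glia, and in the growth plate it reached 47.4 and 53.4 CPM in granulocyte progenitors.

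The lactate carriers were split by lineage. Slc16a3, the exporter MCT4, was highest in mature neutrophils of all 4 libraries, at 723 and 741 CPM in the growth plate and 838 and 1038 CPM in DRG. Slc16a1, the carrier MCT1, was highest in growth plate pre-B cells with vehicle (169 CPM, erythroid cells at 149 CPM) and in erythroid cells with 1NMPP1 (220 CPM, pre-B cells at 181 CPM). Its lowest growth plate level with 1NMPP1 was in mature neutrophils, 2.59 CPM. Pdk1, a kinase that inhibits pyruvate dehydrogenase, was highest in chondrocytes in the growth plate (45.4 and 56.8 CPM).

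The hypoxia genes peaked in different classes. Bnip3 was at 125 and 149 CPM in growth plate chondrocytes, where the next class, macrophages, was at 19.3 and 25.3 CPM, and at 130 and 112 CPM in sensory neurons. Ndrg1, which is also a Schwann cell gene tied to an inherited neuropathy, was at 1855 and 2433 CPM in myelinating Schwann cells and 565 and 920 CPM in satellite glia, against 106 and 93.7 CPM in its highest growth plate class, basophils and mast cells. Ddit4, an inhibitor of mTORC1, was at 198 and 156 CPM in basophils and mast cells. Egln3, an oxygen-sensing prolyl hydroxylase, was at 74.2 and 80.7 CPM in stem and progenitor cells. Ankrd37 was low throughout and highest in mature B cells of both tissues, 18.1 and 24.4 CPM in the growth plate and 17.8 and 22.1 CPM in DRG. Adm, the vessel-dilating peptide adrenomedullin, was at 62.6 and 45.6 CPM in DRG fibroblasts and at 15.9 and 32.7 CPM in its highest growth plate class, chondrocytes. With 1NMPP1 the DRG mature B cells were higher still for Adm, at 55.3 CPM. No single class led for all 6 genes.

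**Figure D1:**
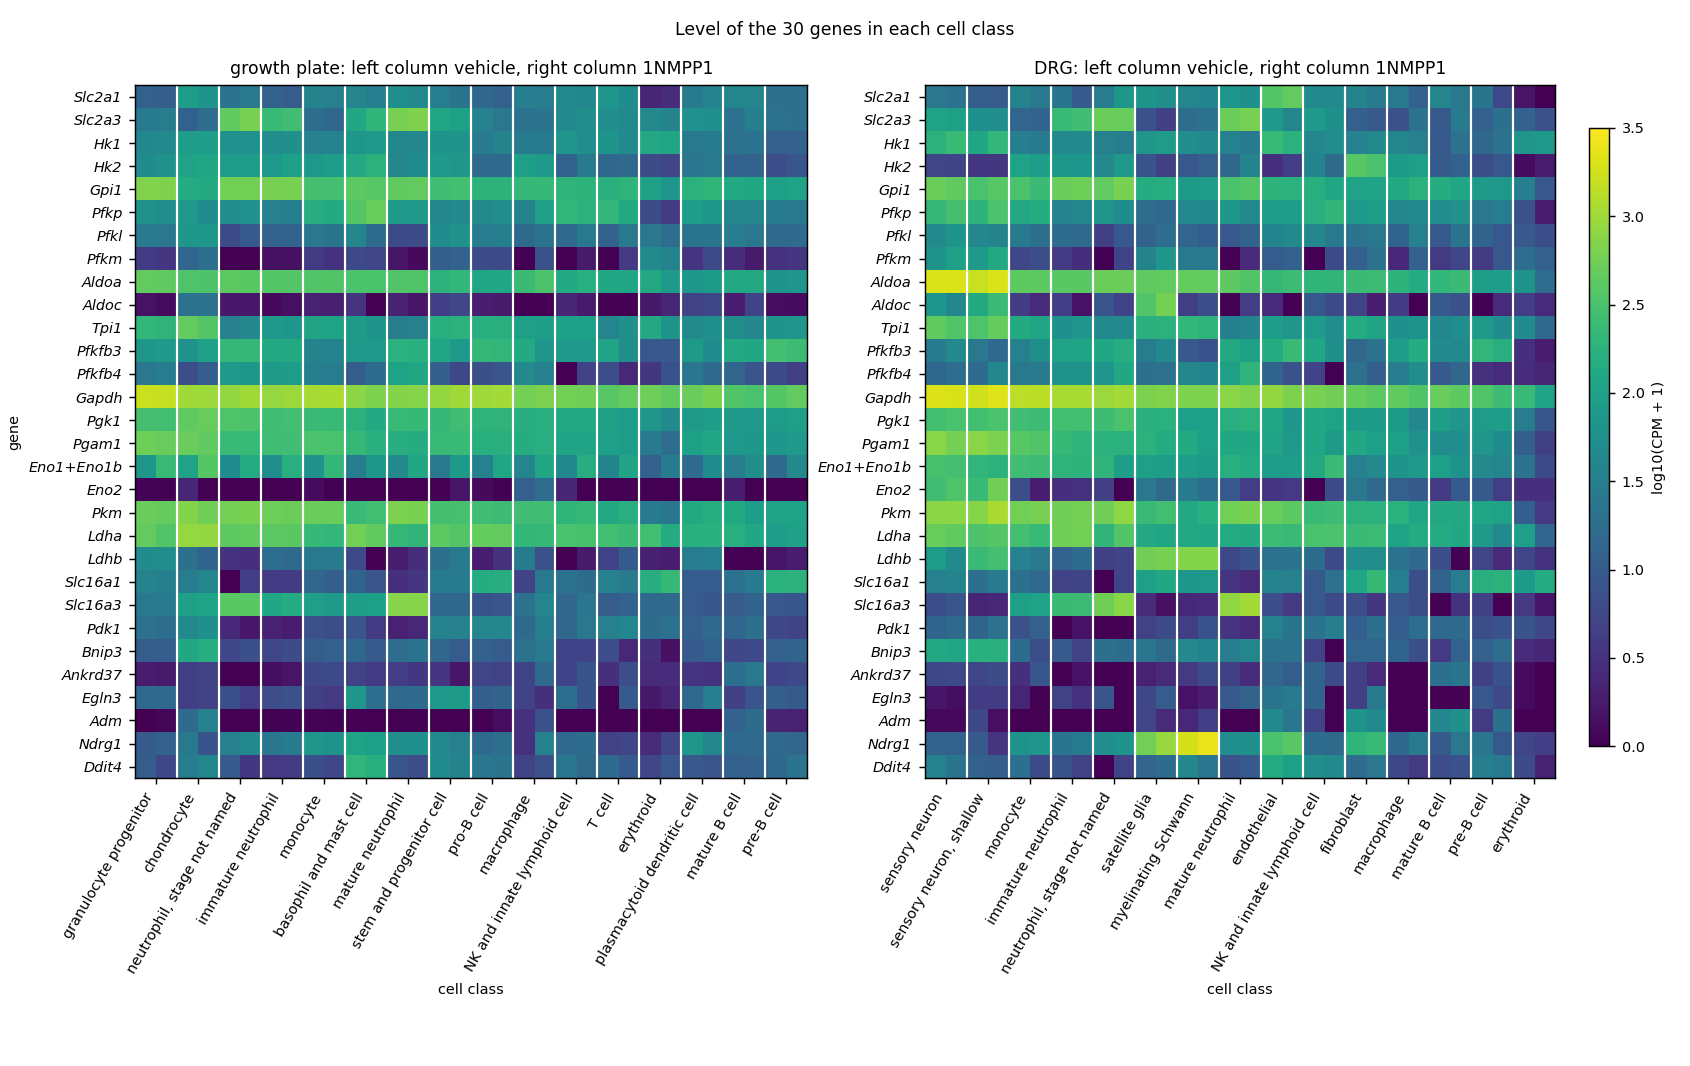
Level of the 30 measured units (rows) in each cell class of the growth plate and DRG libraries, as log10(CPM + 1) by colour, with the vehicle and 1NMPP1 libraries side by side for each class. The Slc2a3 and Slc16a3 rows are bright in the neutrophil columns, Aldoc in satellite glia, Ndrg1 in Schwann cells and satellite glia, and the erythroid columns of DRG are dark in most rows.

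Chondrocyte-like cells were read in both vehicle libraries. The 55 chondrocyte-like cells of the DRG vehicle library had summed enzymes of 4404 CPM, with Ldha at 554 CPM, Pgk1 at 360 CPM, Tpi1 at 295 CPM, Bnip3 at 93.5 CPM and Slc2a1 at 126 CPM. The growth plate vehicle chondrocytes had 4944 CPM for the sum and 878, 438, 453, 125 and 89.7 CPM for those genes. Hk2 was at 221 CPM in the DRG cells and 103 CPM in the growth plate cells, and Ndrg1 at 90.0 and 24.6 CPM. The enzyme sum was thus close in both, and without Eno1 plus Eno1b it was at 4120.2 CPM in the DRG cells and 4841 CPM in the growth plate cells. Hk2 and Ndrg1 were more than 2-fold apart. So were Eno1 plus Eno1b (283 CPM in the DRG cells, 103 CPM in the growth plate cells) and Slc2a3 (4.12 and 11.4 CPM). Not every member is given here, and the growth plate vehicle library stood apart for Eno1 plus Eno1b, as described further on.

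Isozyme shares differed widely between classes. Ldhb made up 81.0% of Ldha plus Ldhb UMIs in vehicle satellite glia (interval 80.0 to 81.9) and 83.5% with 1NMPP1 (81.7 to 85.2), and 84.6% and 85.0% in myelinating Schwann cells. In sensory neurons the share was 14.8% with vehicle (13.9 to 15.7) and 9.34% with 1NMPP1 (8.29 to 10.5). Non-myelinating Schwann cells, read in the vehicle library, were between them at 55.3% (47.9 to 62.5). Endothelial cells were at 7.30% and 8.40%, and growth plate mature neutrophils at 0.406% and 0.923%. The shallow neuronal barcodes, described further on, were at 42.4% (40.8 to 44.0) with vehicle and 44.3% (41.9 to 46.7) with 1NMPP1. The Ldhb share was thus higher in satellite glia and myelinating Schwann cells than in the sensory neurons and the shallow neuronal barcodes, in both libraries. It was also far higher in the shallow barcodes than in the sensory neuron class.

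Aldoc was 44.4% of Aldoa plus Aldoc UMIs in vehicle satellite glia (43.3 to 45.5) and 56.0% with 1NMPP1 (54.0 to 57.9), and the 2 intervals did not overlap. The intervals cover counting error only, and Aldoc varied between clusters of this class, which the libraries held in unlike proportions. Schwann cells had 0.746% and 1.26%. Hk1 was 99.1% and 98.0% of Hk1 plus Hk2 in endothelial cells, and 8.14% (6.06 to 10.6) and 12.1% (9.10 to 15.6) in fibroblasts. Eno2 was 46.7% of all enolase UMIs in vehicle neurons (45.5 to 48.0) and 54.5% with 1NMPP1 (52.8 to 56.1). Slc2a3 was 91.7% and 93.8% of the 2 glucose carriers in growth plate mature neutrophils, 81.5% and 82.7% in neurons, and 17.0% (15.0 to 19.2) and 7.62% (5.77 to 9.82) in endothelial cells. Slc16a3 was 99.7% of the 2 lactate carriers in mature neutrophils in both growth plate libraries, 41.1% and 46.8% in granulocyte progenitors and 4.47% and 4.01% in pre-B cells. Pfkm was 61.4% and 64.1% of the 3 phosphofructokinases in growth plate erythroid cells and 56.0% (52.1 to 59.8) and 68.6% (62.4 to 74.3) in satellite glia.

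**Figure D2:**
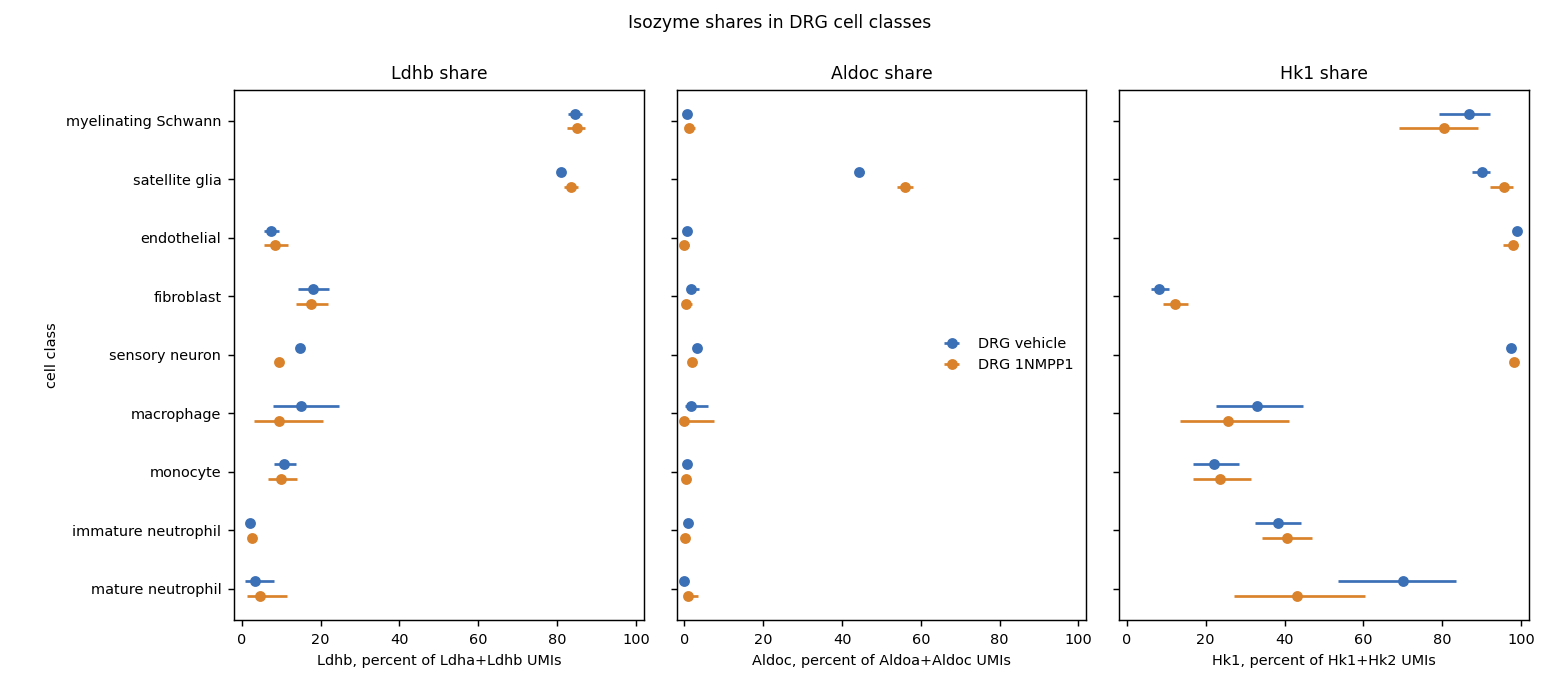
Share of Ldhb, Aldoc and Hk1 UMIs among their isozyme pairs (x axis, percent) in 9 DRG cell classes, with points for the vehicle and 1NMPP1 libraries and bars for exact 95% binomial intervals. Schwann cells and satellite glia sit above 80% for Ldhb with the points of all other classes below 20%, satellite glia stand alone for Aldoc, and fibroblasts sit near 10% for Hk1.

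Per UMI, mature neutrophils of the growth plate had more of the carriers Slc2a1, Slc2a3 and Slc16a3 than earlier stages. Several enzymes were lower in them, but the share of members called lower lay under the share over all genes. Here a member was called between classes when it differed at least 2-fold in both libraries and had at least 50 UMIs over the 2 classes in each. Between mature and immature neutrophils (2568 and 1632 vehicle cells, 3463 and 1995 1NMPP1 cells) 7 of 24 members tested were higher and 3 lower in mature cells, where 14.7% of all genes tested were higher and 24.9% lower. Slc16a3 was at 723 against 125 CPM with vehicle, a log2 difference of 2.54 (2.47 to 2.60), and at 741 against 142 CPM with 1NMPP1 (2.38). Slc2a3 was at 605 against 231 CPM (1.39, 1.34 to 1.45) and at 673 against 263 CPM (1.36). Slc2a1 was at 54.6 against 11.1 CPM (2.30, 2.07 to 2.53) and at 44.4 against 9.87 CPM (2.17). All 3 carriers thus held a larger share of UMIs in the mature cells of both libraries. Mature cells were shallower than immature ones, at a median of 4053.5 against 10250 UMIs per cell with vehicle. Slc2a3 had 7004 UMIs in the 2568 mature and 4428 UMIs in the 1632 immature vehicle cells. Its higher CPM is therefore not a higher count per cell. The median member's log2 difference was -0.14 and -0.18, against -0.31 and -0.28 over all genes.

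The other 4 members higher in mature cells were Pfkp (78.2 against 32.2 CPM, log2 1.28, with vehicle) and the hypoxia genes Bnip3 (16.9 against 4.48 CPM, 1.91), Egln3 (14.9 against 5.68 CPM, 1.39) and Ndrg1 (52.0 against 22.6 CPM, 1.21). The 3 lower ones were Ldhb (0.864 against 17.6 CPM, -4.28, and -3.02 with 1NMPP1), Tpi1 (28.7 against 77.0 CPM, -1.42) and Pfkl (5.10 against 11.5 CPM, -1.16). Several enzymes missed the 2-fold call: Ldha was at 212 against 413 CPM (-0.96), Hk2 at 38.2 against 72.2 CPM (-0.92) and Gpi1 at 445 against 613 CPM (-0.46). Thinned to 1000 UMIs per cell, Ldha and Hk2 passed the 2-fold call on the lower side in both libraries and Pfkp lost its call on the higher side. Pkm was at 654 against 536 CPM (0.29). The summed enzymes differed by -0.30 with vehicle and -0.33 with 1NMPP1.

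Against granulocyte progenitors the distance was larger. Of 27 members tested 7 were higher and 8 lower in mature neutrophils, where 19.7% of all genes were higher and 48.9% lower. Slc16a3 stood at 723 against 24.7 CPM (log2 4.87) with vehicle and 741 against 27.5 CPM (4.75) with 1NMPP1, and Slc2a3 at 605 against 26.4 CPM (4.52) and 673 against 29.9 CPM (4.49). Pfkfb4 (106 against 23.1 CPM, 2.19), Pfkfb3 (172 against 70.4 CPM, 1.29), Slc2a1 (54.6 against 11.4 CPM, 2.26), Ndrg1 (52.0 against 8.85 CPM, 2.55) and Ankrd37 (3.28 against 0.892 CPM, 1.84) were the other 5. Pfkfb3 fell short of 2-fold when thinned. The 8 lower members were Ldhb (0.864 against 47.4 CPM, -5.71), Slc16a1 (1.99 against 35.4 CPM, -4.13), Pdk1 (1.12 against 19.8 CPM, -4.09), Tpi1 (28.7 against 204 CPM, -2.83), Pfkl (5.10 against 27.5 CPM, -2.42), Pgam1 (151 against 538 CPM, -1.83), Gapdh (712 against 1663 CPM, -1.22) and Pfkm (0.605 against 3.09 CPM). Slc16a1 and Slc16a3 thus went in opposite directions from progenitors to mature cells, in both libraries.

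Clusters within the immature class differed in carrier level. Its cycling cluster (451 and 457 cells) had Slc2a3 at 129 and 135 CPM and Slc16a3 at 61.8 and 58.3 CPM. A larger non-cycling cluster (715 and 858 cells) had 277 and 285 CPM and 130 and 135 CPM, and a further one had 428 and 511 CPM and 342 and 424 CPM. The mature clusters of at least 80 cells spanned 555 to 637 CPM for Slc2a3 and 547 to 864 CPM for Slc16a3 with vehicle. The immature class held 7 clusters with vehicle and 6 with 1NMPP1, and not all are given here. No stage marker was used to order the non-cycling ones, so the order of listing is not a measured order of stages.

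Neutrophils in the DRG libraries (145 and 189 mature, 160 and 238 immature) had 4 of 18 members higher and 1 lower in mature cells, where 16.6% of all genes were higher and 13.6% lower. Slc16a3 was at 838 against 243 CPM (1.79) and 1038 against 246 CPM (2.08), Slc2a3 at 509 against 227 CPM (1.16) and 607 against 263 CPM (1.21), Slc2a1 at 68.4 against 22.1 CPM (1.63) and 56.0 against 8.75 CPM (2.66), and Ndrg1 at 50.7 against 22.1 CPM (1.20) and 56.0 against 26.7 CPM (1.08). Ldha was lower, 141 against 555 CPM (-1.97) and 139 against 571 CPM (-2.03). These 4 higher members were also called in the growth plate. Thinned, Slc16a3 and Ldha kept their calls in DRG, Slc2a3 fell short of 2-fold, and Slc2a1 and Ndrg1 had too few UMIs.

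**Figure D3:**
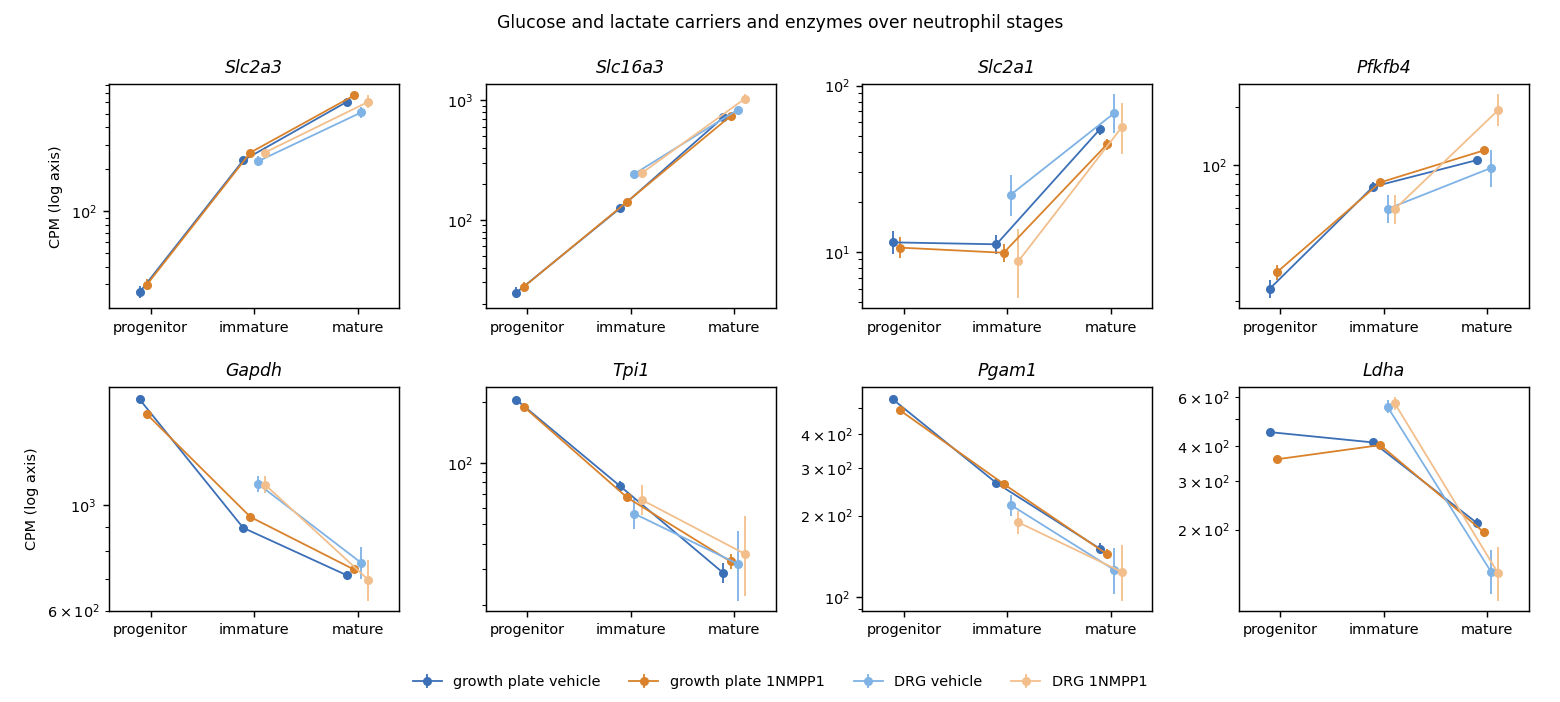
Level (CPM, log axis) of 8 members over granulocyte progenitors, immature and mature neutrophils, with 1 line per library and exact 95% Poisson intervals as bars (the DRG libraries have no progenitor point). Slc2a3, Slc16a3 and Pfkfb4 climb toward mature cells in all lines, and Gapdh, Tpi1, Pgam1 and, from immature to mature cells, Ldha descend.

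Per UMI, cycling pro-B cells had more of many glycolytic transcripts than resting ones, while in pre-B cells few members were higher. Clusters were called cycling at 2000 CPM or more summed over 14 cell cycle genes and resting below 500 CPM. The resting pro-B cells came from 1 cluster. Among pro-B cells (119 cycling and 71 resting with vehicle, 140 and 128 with 1NMPP1), 9 of 19 members tested were higher and 2 lower in cycling cells, where 16.9% of all genes were higher and 14.4% lower. Ldha was at 572 against 63.3 CPM (log2 3.15, 2.66 to 3.75) with vehicle and 582 against 67.6 CPM (3.10) with 1NMPP1. Gapdh was at 1131 against 255 CPM (2.14) and 1268 against 290 CPM (2.13), and the lactate carrier Slc16a1 at 168 against 52.7 CPM (1.64) and 180 against 53.7 CPM (1.73). The median member differed by 0.85 and 1.30, against -0.03 and -0.06 over all genes.

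The other 6 members higher in cycling pro-B cells were Pgk1 (216 against 52.7 CPM with vehicle), Tpi1 (186 against 48.5 CPM), Pgam1 (182 against 54.8 CPM), Pkm (296 against 118 CPM), Eno1 plus Eno1b (37.5 against 10.5 CPM) and Hk2 (18.9 CPM, and no UMI in the resting cells). Hk1 (17.7 against 82.3 CPM, -2.22) and Pdk1 (31.6 against 67.5 CPM, -1.11) were the 2 lower ones. With cells thinned to 1000 UMIs only 2 members had enough UMIs, both still called higher.

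In pre-B cells (386 cycling and 974 resting with vehicle, 553 and 1069 with 1NMPP1) the pattern was narrower. Slc16a1 (249 against 76.8 CPM, 1.70) and Gapdh (551 against 181 CPM, 1.61) were the 2 of 22 members called higher, and Aldoa (38.8 against 90.5 CPM, -1.22), Egln3 (5.20 against 16.7 CPM) and Ndrg1 (7.54 against 18.6 CPM with 1NMPP1) were lower, where 11.8% of all genes were higher and 8.01% lower. The median member differed by -0.13 and 0.01. In immature neutrophils, cycling against resting, 2 of 24 members were higher (Ldhb at 32.1 against 5.67 CPM, 2.49, and Slc16a1 at 4.64 against 2.08 CPM) and 2 lower (Slc2a3 at 129 against 314 CPM, -1.28, and Slc16a3 at 61.8 against 176 CPM, -1.51), where 17.4% of all genes were higher and 7.09% lower. The summed enzymes of cycling against resting cells differed by 1.59 and 1.58 in pro-B cells, 0.70 and 0.74 in pre-B cells and -0.13 and -0.21 in immature neutrophils.

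Sensory neurons carried more of the chain per UMI than the satellite glia around them. Of 25 members tested 15 were higher and 5 lower in neurons (67 against 596 cells, 34 against 185 cells), where 28.7% of all genes were higher and 19.8% lower. Aldoa was at 2026 against 441 CPM (log2 2.20) with vehicle and 2052 against 456 CPM (2.17) with 1NMPP1, and Gapdh at 2063 against 646 CPM (1.68) and 1947 against 692 CPM. Further members higher in neurons were Slc2a3 (105 against 6.53 CPM, 3.99), Pfkp (215 against 17.0 CPM, 3.66), Eno2 (265 against 23.9 CPM, 3.47), Bnip3 (130 against 22.8 CPM, 2.50), Ldha (491 against 127 CPM, 1.95) and Pgam1 (749 against 171 CPM). The median member differed by 1.63 and 1.49, against 0.32 and 0.30 over all genes.

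The 5 members lower in neurons were Ndrg1 (12.2 against 565 CPM, -5.53), Ldhb (85.3 against 543 CPM, -2.67), Aldoc (68.7 against 352 CPM, -2.36), Slc16a1 (32.1 against 95.8 CPM, -1.58) and Slc2a1 (23.8 against 64.3 CPM, -1.43), in the vehicle library. They comprise the hypoxia gene Ndrg1, 1 lactate carrier, 1 glucose carrier and the 2 glial isozymes. Neurons were deep, at a median of 174566 and 175742 UMIs per cell, and thinned to 1000 UMIs only 6 members could be read, 3 higher and 3 lower.

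Between the 2 glia, 2 of 23 members were higher and 2 lower in satellite glia than in myelinating Schwann cells, where 11.5% of all genes were higher and 7.77% lower. Aldoc was at 352 against 3.48 CPM (6.56) and 580 against 5.82 CPM (6.54), and Pfkfb3 at 28.2 against 8.45 CPM and 45.7 against 6.65 CPM. Ndrg1 was lower, at 565 against 1855 CPM (-1.72) and 920 against 2433 CPM (-1.40), as was Pfkp, at 17.0 against 43.7 CPM (-1.37) and 14.6 against 41.6 CPM. The other 19 members tested, Ldhb among them, differed less than 2-fold in at least 1 library.

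Endothelial cells and fibroblasts differed in the transcripts of the entry steps. In endothelial cells against fibroblasts (134 against 103 cells, 120 against 111 cells) 7 of 23 members were higher and 3 lower, where 14.9% of all genes were higher and 16.8% lower. Slc2a1 was at 364 against 35.5 CPM (3.34) and 457 against 25.8 CPM (4.12), and Hk1 at 225 against 34.1 CPM (2.71) and 170 against 43.0 CPM (1.97). Hk2 went the other way, at 2.01 against 385 CPM (-7.47) and 3.49 against 313 CPM (-6.35). Slc2a3, Pfkfb3, Pkm and Ddit4 were among the higher members, Ddit4 at 141 against 15.6 CPM, and the lower ones also held Ldhb (19.8 against 50.5 CPM) and Slc16a1 (35.9 against 112 CPM).

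The comparison of 1NMPP1 with vehicle was made within each class. A member was called when the 2 libraries differed at least 1.5-fold with at least 50 UMIs between them, so a call states a size and not a replicated effect. In the 14 growth plate classes with 30 or more cells in both libraries, 18 of 291 member and class pairs were higher and 10 lower, and 14 of the 18 were Eno1 plus Eno1b. Over all genes tested, 2.27 to 8.90% were higher and 1.47 to 12.5% lower in these classes. In the 14 DRG classes 23 of 253 pairs were higher and 34 lower, 10 of the 34 in erythroid cells, where over all genes 5.52 to 22.1% were higher and 3.27 to 36.9% lower by class. Growth plate chondrocytes (99 and 25 cells), growth plate macrophages (29 and 38) and DRG NK cells (25 and 34) fell short of 30 cells and were read from 25, a choice made after seeing the data.

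Growth plate neutrophils showed almost no difference between treatments in these genes. In mature neutrophils 1 of 24 members was higher, Eno1 plus Eno1b, and 0 lower (5.64% of all genes higher, 1.66% lower), and the summed enzymes were at 2999.6 CPM with vehicle and 3031 CPM with 1NMPP1 (log2 0.02, -0.00 to 0.03). The median member was at 0.02 against 0.07 over all genes. The next members were Slc16a1 (0.37) and Hk2 (0.35), and the lowest Ddit4 (-0.33), Ankrd37 (-0.31) and Slc2a1 (-0.30). In immature neutrophils the same unit was the 1 call of 24 (3.48% higher, 1.47% lower), with sums of 3680.2 and 3817 CPM. Hk2 was next, at 72.2 and 93.8 CPM (0.38), and Ldhb lowest, at 17.6 and 15.0 CPM (-0.22). Granulocyte progenitors had 1 of 26 higher and 1 lower (2.58% and 2.47%): Ddit4 was at 9.61 CPM with vehicle and 4.58 CPM with 1NMPP1 (-1.07, -1.48 to -0.66).

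Monocytes had 1 of 27 members higher and 0 lower (2.27% and 2.89% of all genes), pre-B cells 1 of 26 and 0 (2.37% and 1.89%), pro-B cells 1 of 25 and 0 (2.62% and 2.48%), NK cells 1 of 14 and 0 (4.35% and 5.85%), and neutrophils of no named stage 1 of 18 and 0 (4.71% and 2.75%). In each of these 5 classes the call was Eno1 plus Eno1b. The lowest members were Ddit4 in monocytes (-0.43), Pfkfb4 in pre-B cells (-0.58), Slc2a3 in pro-B cells (-0.56), Hk1 in NK cells (-0.37) and Pfkfb4 in the unstaged neutrophils (-0.11). No other tested member passed 1.5-fold in these 5 classes.

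Further calls came from 5 small growth plate classes. T cells had 1 of 14 members higher and 1 lower (4.05% and 8.29%), the latter Pfkfb3 at 102 and 52.6 CPM (-0.95, -1.61 to -0.32). Basophils and mast cells had 2 of 19 higher and 1 lower (8.90% and 12.5%), with Slc2a3 at 123 and 192 CPM (0.63, 0.25 to 1.03) and Egln3 at 67.9 and 17.8 CPM (-1.88, -2.96 to -1.01). Plasmacytoid dendritic cells had 2 of 20 higher and 2 lower (3.68% and 4.39%), with Egln3 at 14.9 and 30.4 CPM (1.01, 0.28 to 1.85), Ndrg1 at 71.2 and 38.1 CPM (-0.90) and Pfkfb3 at 79.8 and 49.0 CPM (-0.70). Stem and progenitor cells had 2 of 22 higher and 1 lower (5.10% and 5.66%), with Ldhb at 18.3 and 28.0 CPM (0.59, -0.18 to 1.44) and Pfkfb3 at 118 and 78.1 CPM (-0.59). Mature B cells had 2 of 16 higher and 0 lower (3.97% and 5.25%), with Slc2a3 at 19.9 and 31.8 CPM (0.66). Pfkfb3, the phosphofructokinase activator, was on the lower side in 3 of these 5 classes. Growth plate macrophages, under the cell minimum, had 2 of 12 higher and 1 lower (8.33% and 12.5%): Pfkp was at 36.4 and 101 CPM (1.45, 0.65 to 2.36) and Pfkfb3 at 139 and 65.2 CPM (-1.08, -1.76 to -0.45).

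Growth plate chondrocytes had 4 of 26 members higher and 1 lower (7.92% and 10.6% of all genes). Beside Eno1 plus Eno1b, Adm was at 15.9 CPM with vehicle and 32.7 CPM with 1NMPP1 (1.04, 0.40 to 1.67), Pfkfb3 at 59.2 and 98.9 CPM (0.74, 0.40 to 1.08) and Slc2a3 at 11.4 and 17.1 CPM (0.59, -0.26 to 1.41). Ndrg1 was lower, at 24.6 and 7.01 CPM (-1.74, -3.00 to -0.81), but at -0.06 with doublets kept. A cluster of 27 of the 99 vehicle cells, at 34.0 CPM for Ndrg1, held no 1NMPP1 cell, and in the largest cluster with cells of both libraries (31 and 12) Ndrg1 was at 7.33 and 5.56 CPM. The summed enzymes were at 4944 and 4901 CPM (-0.01, -0.06 to 0.03) and Ldha at 878 and 858 CPM. The 1NMPP1 value rests on 25 cells. In vehicle and 1NMPP1 chondrocytes immature neutrophil markers summed to 1923 and 1088 CPM and fibroblast markers to 2453 and 1733 CPM. The monocyte marker set summed to 7282 and 7462 CPM, but it includes the fibronectin gene Fn1. Which of its 7 markers made up that sum was not read, so it does not by itself mark monocyte transcripts. The part of these transcripts in the values above was not tested.

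The summed enzymes of erythroid cells were lower with 1NMPP1 in both tissues, and the count of lower members exceeded the share over all genes in DRG and lay near it in the growth plate. In DRG (249 and 320 cells) 10 of 13 members tested were lower and 1 higher, where 36.9% of all genes were lower and 5.52% higher. Ldha was at 92.3 CPM with vehicle and 12.7 CPM with 1NMPP1 (-2.85, -3.34 to -2.41), Gapdh at 232 and 102 CPM (-1.18, -1.36 to -1.01) and Aldoa at 63.1 and 16.9 CPM (-1.89, -2.33 to -1.49). Gpi1 (31.2 and 7.90 CPM, -1.96), Pgk1 (29.4 and 7.62 CPM, -1.93), Eno1 plus Eno1b (19.4 and 5.08 CPM, -1.91), Tpi1 (48.8 and 15.2 CPM, -1.67), Pgam1 (10.5 and 3.67 CPM, -1.48), Slc2a3 (11.5 and 6.49 CPM, -0.81) and Pfkm (16.9 and 11.0 CPM, -0.61) completed the 10. Slc16a1, the lactate carrier, was the 1 higher member, at 80.3 and 148 CPM (0.88, 0.68 to 1.09), and Hk1 was at 65.7 and 78.1 CPM (0.25). The summed enzymes were at 644 and 277 CPM (-1.22, -1.33 to -1.11), and the median member at -1.48 against -0.37 over all genes.

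Within single DRG erythroid clusters the direction was the same. In the cluster with most of these transcripts (81 and 102 cells) the sum was at 1164 and 563 CPM (-1.05), Ldha at 176 and 27.3 CPM (-2.68) and Slc16a1 at 110 and 255 CPM (1.21, 0.97 to 1.46). Red cell markers, largely globins, summed to 472764 CPM with vehicle and 567918 CPM with 1NMPP1 in the class, with 7 of 8 higher. Fibroblast markers summed to 103 and 6.21 CPM there and chondrocyte markers to 15.8 and 1.13 CPM, with 5 of 9 at 0 in the 1NMPP1 library. The part of these other transcripts and of the larger globin share in the lower enzyme levels was not tested.

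In the growth plate (246 and 215 erythroid cells) 4 of 16 members were lower and 1 higher, where 20.8% of all genes were lower and 3.89% higher. Tpi1 was at 130 and 64.2 CPM (-1.02, -1.30 to -0.74), Ldha at 276 and 140 CPM (-0.98, -1.17 to -0.79), Aldoa at 128 and 76.0 CPM (-0.75, -1.02 to -0.49) and Pgam1 at 27.2 and 16.7 CPM (-0.69, -1.30 to -0.13). The sum was at 1516 and 1080.0 CPM (-0.49, -0.56 to -0.42), and the median member at -0.30 against -0.25 over all genes. Slc16a1 was at 149 and 220 CPM, short of the call (0.56). Thinned to 1000 UMIs per cell, Ldha turned to 0.33, with 31 of 246 and 11 of 215 shallow cells left out. Red cell markers were at 163004 and 246644 CPM here, and their part was not tested. Tpi1, Ldha, Aldoa and Pgam1 were the 4 members called lower in erythroid cells of both tissues.

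**Figure D4:**
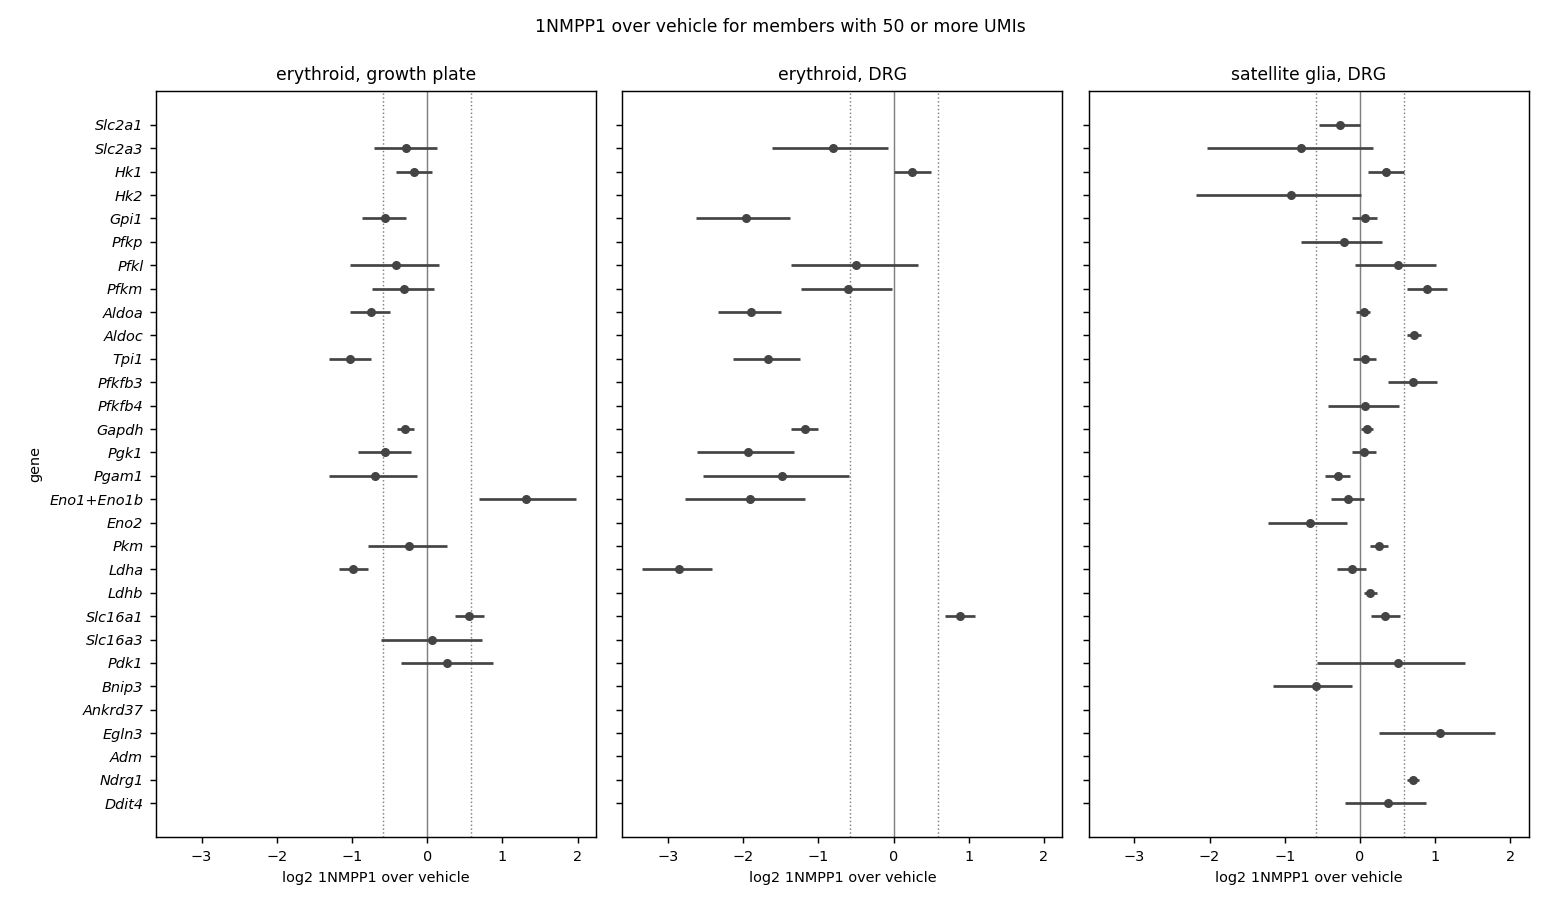
Log2 of 1NMPP1 over vehicle for each member with 50 or more UMIs in growth plate erythroid cells, DRG erythroid cells and DRG satellite glia, with exact 95% intervals for counting error as bars and dotted lines at 1.5-fold. In DRG erythroid cells 10 members lie left of the lower line and Slc16a1 right of the upper one.

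DRG satellite glia (596 and 185 cells) had 5 of 27 members higher and 4 lower with 1NMPP1, where 19.8% of all genes were higher and 7.91% lower. Ndrg1 was at 565 CPM with vehicle and 920 CPM with 1NMPP1 (0.71, 0.63 to 0.78) and Aldoc at 352 and 580 CPM (0.72, 0.63 to 0.81). Pfkm was at 36.7 and 68.0 CPM (0.89, 0.62 to 1.16), Pfkfb3 at 28.2 and 45.7 CPM (0.70, 0.37 to 1.02) and Egln3 at 4.52 and 9.31 CPM (1.06, 0.25 to 1.80). The share of higher members, 5 of 27, lay near the share of all genes, and the median member was at 0.07 against 0.15 over all genes. The lower members were low in level: Hk2 (7.23 and 3.64 CPM, -0.92), Slc2a3 (6.53 and 3.64 CPM, -0.78), Eno2 (23.9 and 15.0 CPM, -0.66) and Bnip3 (22.8 and 15.0 CPM, -0.59).

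In the largest satellite glia cluster (351 and 138 cells) Aldoc was at 435 and 666 CPM (0.61, 0.52 to 0.71), Ndrg1 at 610 and 975 CPM (0.68, 0.60 to 0.75), Pfkm at 40.0 and 68.3 CPM (0.78) and Pfkfb3 at 27.8 and 48.0 CPM (0.79). Another cluster (46 and 33 cells) had Aldoc at 137 and 208 CPM (0.61) and Ndrg1 at 456 and 558 CPM (0.29). The remaining clusters held 103 and 11 cells and 96 and 3 cells. Their Aldoc was at 12.9 and 131 CPM with vehicle, with no Aldoc UMI in their few 1NMPP1 cells. These clusters made up a larger part of the vehicle cells, and the part of that make-up in the class values was not tested. Neuron markers in the class summed to 158 and 89.4 CPM, with 0 of 8 higher, and Schwann markers to 1518 and 1736 CPM, with 6 of 7 higher. A set of 16 dissociation stress genes summed to 11083 and 16754 CPM in these cells, and its part in the difference was not tested.

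Sensory neurons (67 and 34 cells) had 2 of 28 members higher and 3 lower, where 15.4% of all genes were higher and 8.15% lower. Pfkfb3 was at 27.2 and 46.0 CPM (0.76, 0.52 to 1.00) and Pfkm at 62.4 and 96.7 CPM (0.63, 0.47 to 0.79). The lower members were Ldhb (85.3 and 45.4 CPM, -0.91, -1.11 to -0.71), Aldoc (68.7 and 39.7 CPM, -0.79, -1.01 to -0.58) and Ddit4 (33.0 and 21.0 CPM, -0.65, -0.96 to -0.36). Ldhb and Aldoc are the isozymes that were high in satellite glia, and satellite glia markers in the neuron class summed to 536 CPM with vehicle and 161 CPM with 1NMPP1, with 1 of 7 higher. Their part in the lower Ldhb and Aldoc was not tested. The summed enzymes were at 8568 and 8333 CPM (-0.04, -0.06 to -0.02), and the median member was at -0.04 against 0.09 over all genes.

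The shallow barcodes with neuronal transcripts (308 and 67) had 9 of 25 members higher and 2 lower. Over all genes 13.8% were higher and 13.5% lower. Their median was 911 UMIs per barcode with vehicle and 792 UMIs with 1NMPP1, but the class held 6237868 and 2544827 UMIs. Thinning left out 173 of the 308 and 40 of the 67 barcodes. The name shallow thus holds for the median barcode, while most UMIs behind the class CPM came from deeper barcodes. Eno2 was at 238 and 555 CPM (1.22, 1.12 to 1.33), Pfkfb4 at 15.6 and 42.4 CPM (1.45, 1.04 to 1.86), Aldoc at 131 and 239 CPM (0.86) and Hk1 at 113 and 206 CPM (0.86). Pfkp, Pfkm, Pkm, Slc16a1 and Pdk1 were the other 5 higher members. Ndrg1 (8.66 and 2.36 CPM, -1.77) and Pfkfb3 (24.5 and 14.9 CPM, -0.70) were lower. Red cell markers in these barcodes summed to 1772 CPM with vehicle and 325 CPM with 1NMPP1, with 1 of 8 higher, and satellite glia markers to 485 and 306 CPM, with 1 of 7 higher, and their part was not tested. With each barcode weighted alike, 6 of the 9 turned to the lower side (Pfkp, Pfkm, Aldoc, Pkm, Slc16a1 and Pdk1), so those values rest on the deeper barcodes. Aldoc lay on opposite sides in these barcodes and in the deep neurons.

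DRG endothelial cells (134 and 120) had 1 of 24 members higher and 4 lower, where 22.1% of all genes were higher and 7.18% lower. Slc2a3 was at 74.8 and 37.7 CPM (-0.98, -1.44 to -0.55), Adm at 44.3 and 22.3 CPM (-0.97, -1.59 to -0.42), Pgk1 at 119 and 68.4 CPM (-0.79, -1.13 to -0.47) and Pdk1 at 33.2 and 21.6 CPM (-0.60, -1.25 to -0.02). Pfkfb3 was higher, at 148 and 227 CPM (0.62, 0.41 to 0.83), and Slc2a1 was at 364 and 457 CPM (0.33). The median member was at -0.13 against 0.21 over all genes. The enzyme sum was at 2768 and 2340.2 CPM (-0.24, -0.30 to -0.18), but at a log2 of 0.17 after thinning and 0.07 in the largest cluster. Red cell markers in this class stood at 253 and 3932 CPM and stress genes at 20815 and 26636 CPM, and their part was not tested.

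Fibroblasts and Schwann cells had few calls. Fibroblasts (103 and 111 cells) had 1 of 19 members higher and 1 lower (13.6% and 6.77% of all genes): Slc16a1 was at 112 and 223 CPM (0.99, 0.70 to 1.28) and Eno2 at 24.2 and 14.6 CPM (-0.70). Myelinating Schwann cells (214 and 228) had 0 of 21 higher and 2 lower (12.5% and 6.32%): Ddit4 was at 41.3 and 22.5 CPM (-0.86, -1.56 to -0.24) and Eno2 at 26.8 and 17.5 CPM (-0.60). Ndrg1 in Schwann cells was at 1855 and 2433 CPM, short of the call (0.39, 0.32 to 0.46). Sensory neuron markers, which go with the neuronal enolase Eno2, summed to 149 and 90.3 CPM in fibroblasts, with 2 of 8 higher, and to 258 and 142 CPM in Schwann cells, with 0 of 8 higher. Red cell markers in fibroblasts stood at 283 and 3260.3 CPM, with 7 of 8 higher, and Slc16a1 was also called higher in DRG erythroid cells. The part of these transcripts in the Eno2 and Slc16a1 values was not tested.

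The DRG blood classes varied without a common direction. Mature neutrophils had 1 of 15 members higher and 1 lower (10.8% and 5.10%), Pfkfb4 at 96.7 and 192 CPM (0.99, 0.57 to 1.42) and Pfkp at 69.5 and 44.1 CPM (-0.64). Immature neutrophils had 0 of 20 higher and 1 lower (10.3% and 3.27%), Slc2a1 at 22.1 and 8.75 CPM (-1.31, -2.17 to -0.55). Neutrophils of no named stage had 1 of 11 higher and 1 lower (10.2% and 5.54%), Ldha at 197 and 355 CPM (0.84) and Eno1 plus Eno1b at 190 and 90.8 CPM (-1.05). Macrophages had 1 of 11 higher and 2 lower (12.5% and 11.7%), Pfkfb3 at 89.6 and 146 CPM (0.70, 0.12 to 1.28), Pgk1 at 78.6 and 40.8 CPM (-0.91) and Pgam1 at 92.8 and 58.3 CPM (-0.65). Red cell markers in those macrophages stood at 21574 and 604 CPM and stress genes at 17368 and 27411 CPM, and their part was not tested. Monocytes had 1 of 19 higher and 0 lower (11.1% and 5.97%), Pfkfb3 at 33.1 and 54.8 CPM (0.73). Pre-B cells had 0 of 13 higher and 2 lower (14.1% and 8.90%), Ldha at 78.1 and 46.7 CPM (-0.72) and Tpi1 at a log2 of -0.63. Mature B cells had 0 of 7 higher and 1 lower (13.8% and 6.84%), Eno1 plus Eno1b at 94.9 and 62.0 CPM (-0.61), and NK cells had 1 of 8 higher and 0 lower (11.7% each), Eno1 plus Eno1b at 131 and 241 CPM (0.87). Pfkfb3 was on the higher side in DRG endothelial cells, macrophages, monocytes, satellite glia and neurons and in growth plate chondrocytes, and on the lower side in shallow neuronal barcodes and in 4 other growth plate classes.

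Enolase 1 was the member that differed most evenly between the growth plate libraries. Eno1 plus Eno1b was at 44.7 CPM with vehicle and 122 CPM with 1NMPP1 in mature neutrophils (1.44, 1.30 to 1.59), 70.8 and 236 CPM in granulocyte progenitors (1.74, 1.64 to 1.84) and 103 and 372 CPM in chondrocytes (1.85, 1.64 to 2.07). Over all 16 growth plate classes the log2 value lay between 0.86 (mature B cells) and 1.85, and in the 15 DRG classes between -1.91 and 0.87, with 4 above 0. Over all kept cells the unit was at 49.2 CPM in the growth plate vehicle library and at 148, 168 and 150 CPM in the growth plate 1NMPP1, DRG vehicle and DRG 1NMPP1 libraries. The growth plate vehicle library therefore stood apart from the other 3, and the same held for how the UMIs were divided.

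Eno1 made up 64.3% of Eno1 plus Eno1b UMIs in the growth plate vehicle library and 94.3%, 94.4% and 92.0% in the others in that order. By class the share ran from 53.6 to 90.0% in that library and from 91.8 to 96.8% in the growth plate 1NMPP1 library. In granulocyte progenitors Eno1 alone was at 45.0 and 225 CPM (2.32) and Eno1b at 25.7 and 11.5 CPM (-1.16). Eno1 (chr4:150236721-150248879, plus strand, GRCm38) and the intronless copy Eno1b share 68.1% of the 50-base words in Eno1's last 500 bases, and reads that match both genes can be dropped or reassigned by a counting program. The 4 gene tables list the same mouse genes but differ in added sequences: the growth plate vehicle table has an added vector sequence, the growth plate 1NMPP1 table none and both DRG tables a reporter. The part of the counting reference in the enolase difference was not tested. Without it, the other 16 summed enzymes differed by -0.02 in mature neutrophils.

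**Figure D5:**
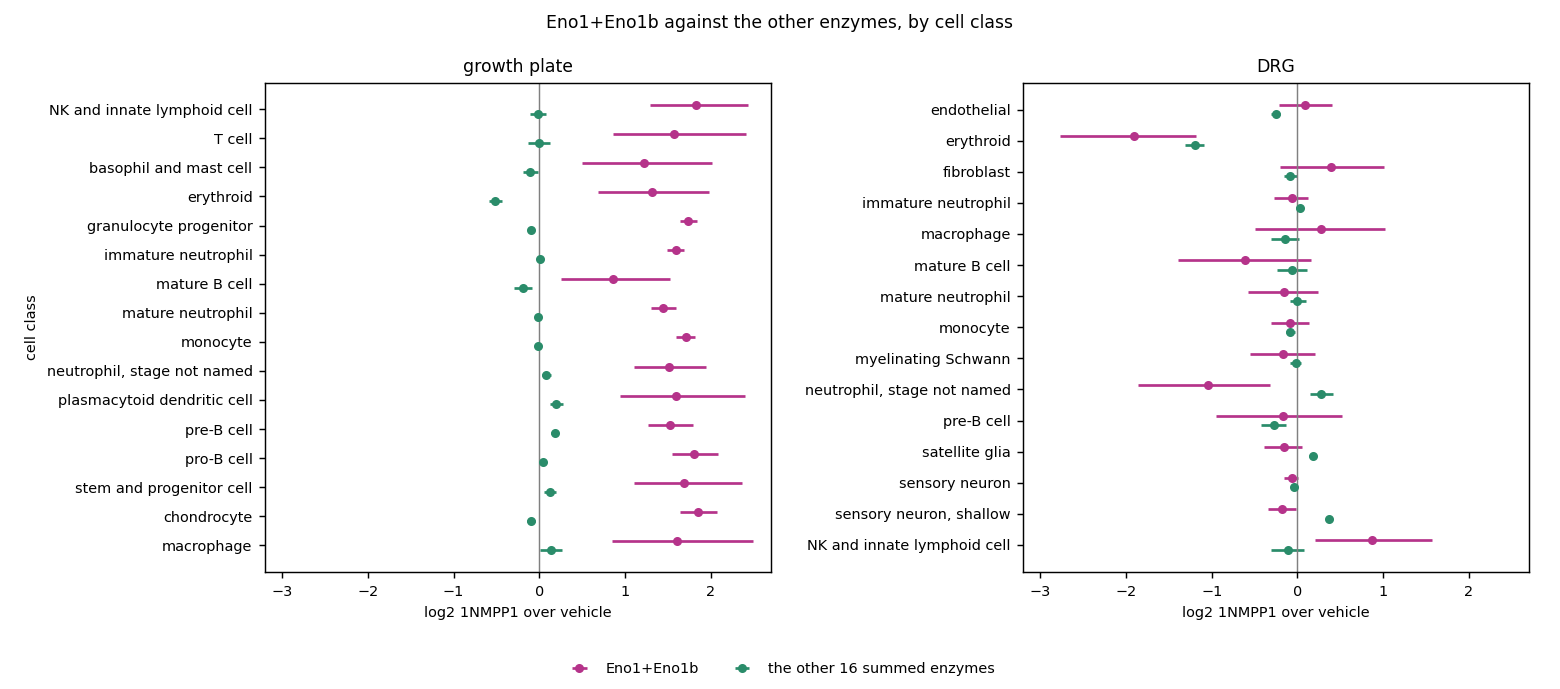
Log2 of 1NMPP1 over vehicle for Eno1 plus Eno1b and for the other 16 summed enzymes in each growth plate (left) and DRG (right) class, with exact 95% intervals for counting error as bars. In the growth plate the enolase points lie at 0.86 to 1.85 in all 16 classes while the other enzymes stay near 0 except in erythroid cells.

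A further list of 64 genes covers the neighbouring steps: other glucose carriers and isozymes, the pentose phosphate path, pyruvate entry into mitochondria, glycogen enzymes, and the hypoxia-inducible factors with their targets. In DRG satellite glia 9 of its 44 genes tested were higher with 1NMPP1 and 1 lower, a share of higher genes close to the 19.8% over all genes (7.91% lower). The 3 highest were the transcription repressor Bhlhe40 (109 and 289 CPM, 1.41, 1.27 to 1.54), the vessel growth factor Vegfa (77.2 and 176 CPM, 1.19, 1.02 to 1.36) and Vhl, which marks hypoxia-inducible factors for removal (5.83 and 10.9 CPM, 0.92), and the lower one was Gys1 (6.63 and 2.83 CPM, -1.14). Bhlhe40 was also higher in Schwann cells (80.0 and 220 CPM, 1.45), where 2 of 29 were higher (12.5% of all genes). The 1 lower gene there (6.32% of all genes) was Fbp1 (54.2 and 17.5 CPM, -1.61). Stress genes in these Schwann cells summed to 10952 and 16496 CPM, and their part was not tested. In endothelial cells 5 of 31 were higher and 1 lower, both under the 22.1% and 7.18% over all genes, with Arnt, the shared partner of the hypoxia-inducible factors, at 51.3 and 104 CPM (1.02), Epas1, the gene of HIF-2 alpha, at 728 and 1268 CPM (0.80) and the lipid droplet gene Hilpda at 32.5 and 7.68 CPM (-2.03).

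In DRG erythroid cells 8 of 22 genes of that list were lower and 1 higher, near the 36.9% and 5.52% over all genes. The lowest were Dlat of the pyruvate dehydrogenase complex (17.9 and 3.10 CPM, -2.47), Pgd of the pentose phosphate path (11.8 and 2.26 CPM, -2.31) and Fam162a (36.8 and 13.8 CPM, -1.40), and the higher one was the glucose carrier Slc2a4 (9.46 and 24.8 CPM, 1.38). Growth plate erythroid cells had 5 of 30 lower and 0 higher, under the 20.8% and 3.89% over all genes, and the lowest were Dlat (45.9 and 21.5 CPM, -1.08), G6pdx (32.9 and 17.6 CPM, -0.89) and Pgm2 (21.1 and 11.4 CPM, -0.87). Neurons had 9 of 45 higher and 2 lower (15.4% and 8.15% of all genes), from Hif1an (12.2 and 29.2 CPM, 1.26) to Fbp2 (38.5 and 17.6 CPM, -1.13). In growth plate mature neutrophils 1 of 38 was higher and 1 lower (5.64% and 1.66%), in immature ones 1 of 42 was higher (3.48%), and in granulocyte progenitors 1 of 46 (2.58%).

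Across neutrophil maturation in the growth plate 4 of 39 genes of the list were higher in mature cells and 6 lower, both shares under the 14.7% and 24.9% over all genes. Hif1a, the gene of HIF-1 alpha, was at 138 against 37.9 CPM (1.87) with vehicle and 119 against 37.4 CPM (1.66) with 1NMPP1, and the carrier Slc2a6 at 54.9 against 0.990 CPM and 63.7 against 1.61 CPM. Glycogen synthase Gys1 was lower, at 18.5 against 83.7 CPM (-2.17), as was the oxidase Ero1l, at 48.0 against 203 CPM (-2.08). In DRG, with 4 of 27 higher and 6 lower (16.6% and 13.6% of all genes), the higher genes were Slc2a6 (116 against 5.41 CPM with vehicle), Taldo1 and Hif1a, with Arnt. Epas1 was at 319 CPM in vehicle satellite glia, 18.4 CPM in Schwann cells and 2.89 CPM in neurons, and Vegfa at 77.2 CPM in satellite glia against 9.94 CPM in Schwann cells.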

How the data were processed

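The deposited tables hold whole UMI counts per gene and cell barcode from 10x Genomics Chromium libraries, which the authors made with Cell Ranger (version 7.2.0, per the file headers) on mm10, per the submitters' processing notes. Barcodes with under 200 genes or over 20% mitochondrial UMIs were removed, and doublets by Scrublet score at 0.8% per 1000 barcodes (55 to 1115 per library). Cells were clustered with scanpy 1.11.5 and leidenalg 0.10.2 on 2000 variable genes without the members and the 64 pathway genes (30 components, 20 neighbours, resolution 1). Clusters were named from 30 marker sets with at least 3 markers detected, and the scoring rule was set after the data were seen. Raw counts were summed per library and class, and log2 ratios of CPM took 0.5 added UMI. Exact Poisson, conditional ratio and Clopper-Pearson 95% intervals came from scipy 1.17.1, and the calling code was tested on simulated data. UMIs are molecules from an unstated number of animals, so intervals leave out the spread between animals.

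Groups came from the labels, with 1 library each. With no replicates no test was run, and the planned differences were given as sizes. The rule for named genes was that all members are accounted for, with the 3 highest and 3 lowest per class of those with 50 UMIs, the highest and lowest class per member, and at most 3 pathway genes per direction and class. In small classes only the called members are printed. The members and lists were chosen with earlier results of these data known. Alternatives were thinning to 1000 UMIs per cell, each cell weighted alike, doublets kept, a lower mitochondrial limit, the largest cluster of a class and cells of 1 sex. Further ones were clustering with all variable genes, other UMI minimums and folds, no 50 most abundant genes, and centring on all genes. A comparison of growth plate chondrocytes with fibroblasts and stromal cells was not run, because those classes held 6 to 12 cells. The engineered gene is not reported here.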

Additional observations from a re-analysis of the deposited data

Results flagged for a closer look

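Some member and class pairs lay past 1.5-fold in opposite directions in the 2 tissues. Of 117 pairs in the 9 classes compared in both tissues, 4 did so and 5 lay past it in the same direction. Eno1 plus Eno1b was at a log2 of 1.31 in growth plate erythroid cells and -1.91 in DRG erythroid cells. It was at 0.86 in growth plate mature B cells and -0.61 in DRG ones, and at 1.51 and -1.05 in neutrophils of no named stage. The growth plate side of these values is not particular to these classes: Eno1 plus Eno1b lay between 0.86 and 1.85 in all 16 growth plate classes. Over all kept growth plate cells it was at 49.2 CPM with vehicle and 148 CPM with 1NMPP1. Pfkfb3 was at -1.08 in growth plate macrophages and 0.70 in DRG macrophages. Each value compares 1 library with 1 library, and the difference between tissues was not tested.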

How the results depend on the processing

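No paired analysis was possible because each group is 1 library, and for the same reason no replicate could be left out. Of the 94 called member values, 42 stayed past the fold in every alternative that could be read and 15 turned sign in at least 1 of the alternatives run.

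The growth plate pairs called higher (18 as reported) numbered 8 when thinned, 28 with each cell alike, 10 in female cells, 9 with 200 UMIs and 4 without Eno1 and Eno1b. Those called lower (10) numbered 3 when thinned, 20 with each cell alike, 16 with 20 UMIs, 6 with 200 UMIs and 3 at 2-fold. In DRG the pairs higher (23) numbered 8 when thinned, 12 in the largest cluster, 7 in male and 8 in female cells, 35 with 20 UMIs and 3 at 2-fold. The pairs lower (34) numbered 3 when thinned, 8 in the largest cluster, 6 in male and 12 in female cells, 53 with 20 UMIs, 11 with 200 UMIs and 11 at 2-fold. Thinning, single clusters and single sexes leave fewer pairs with enough UMIs.

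The summed enzymes of growth plate mature neutrophils (0.02) ran from -0.05 when centred through -0.03 in female cells, -0.02 without the top 50 genes, -0.02 without Eno1 and -0.01 in male cells to 0.04 when thinned. Those of growth plate erythroid cells (-0.49) were at -0.37 thinned, -0.57 with each cell alike, -0.42 with doublets kept, -0.38 in the largest cluster, -0.26 in male cells and -0.24 centred. Chondrocytes (-0.01) were at -0.10 with doublets kept, -0.10 without Eno1 and -0.14 in clusters that hold both libraries. DRG erythroid cells (-1.22) were at -0.81 thinned, -1.67 with each cell alike, -1.0 in the largest cluster, -0.80 in female cells, -0.91 without the top 50 genes and -0.85 centred. Satellite glia (0.17) were at 0.10 in male and 0.21 in female cells, 0.11 without the top 50 genes and 0.02 centred. Neurons (-0.04) were at -0.15 thinned, -0.02 with doublets kept, -0.07 without the top 50 genes and -0.13 centred. Endothelial cells (-0.24) were at 0.17 thinned, 0.07 in the largest cluster and -0.45 centred. The cause was not tested.

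Named members that turned sign were, when thinned, Ldha in growth plate erythroid cells (0.33) and Ndrg1 in plasmacytoid dendritic cells (0.04); with doublets kept, Slc2a3 in chondrocytes (-0.08); and in male cells Eno2 in Schwann cells (0.19), Slc2a3 in satellite glia (0.26) and Hk2 there (0.05). With each cell alike, Pfkfb3 in chondrocytes was at -0.40, Pfkm in DRG erythroid cells at 0.14, Pgam1 in DRG macrophages at 0.51, and in shallow neuronal barcodes Pfkp at -0.37, Pfkm at -0.44, Aldoc at -1.62, Pkm at -0.08, Slc16a1 at -2.95 and Pdk1 at -2.31. The cause was not tested.

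In thinned class contrasts fewer members had enough UMIs, but Pfkp in growth plate mature over immature neutrophils, Slc2a3 in DRG ones and Pfkfb3 in mature neutrophils over progenitors had enough and lost their higher calls, and Ldha and Hk2 gained lower ones in growth plate mature over immature neutrophils. Mature over immature DRG neutrophils then had 1 member higher, mature neutrophils over progenitors 3 lower, cycling pre-B cells 1 lower, cycling pro-B cells 2 higher and 0 lower, cycling immature neutrophils 0 higher, satellite glia over Schwann cells 1 higher and 1 lower, neurons over satellite glia 3 higher and 3 lower, and endothelial cells over fibroblasts 2 higher and 0 lower. Thinned isozyme shares were 76.0% and 77.9% for Ldhb in satellite glia, 82.5% in vehicle Schwann cells, 11.8% in vehicle neurons and 14.0% in both libraries of progenitors. Slc2a3 was 25.0% and 13.1% in endothelial cells and 93.3% in 1NMPP1 mature neutrophils, Slc16a3 10.5% and 6.20% in pre-B cells, Aldoc 36.8% and 51.1% in satellite glia, Hk1 15.0% in vehicle fibroblasts and Eno2 38.6% in vehicle neurons. Thinning left out 93 to 320 shallow cells per library.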
